A study of Gallus gallus with 24 samples.

Results

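The comparison covered 6 libraries of PBMCs treated with BV and 6 libraries of untreated PBMCs, 12 of the 24 libraries of the series. PBMCs are peripheral blood mononuclear cells, in chickens mainly lymphocytes and monocytes, and thrombocytes, which are nucleated in birds, are often isolated with them. BV is a probiotic strain of Bacillus velezensis, added alive at 3 bacteria per PBMC for 24 h, and the control held PBMCs of the same birds in medium for 24 h. The remaining 12 libraries were PBMCs of these birds treated for 24 h with BS (a probiotic strain of Bacillus subtilis, also 3 bacteria per PBMC) or with conA (concanavalin A, 10 µg/ml), a plant lectin that activates T cells. All 6 birds were Cobb500 broilers a few weeks old, the 24 h cultures ran in RPMI medium with chicken serum and without antibiotics after a first culture to the next day with penicillin and streptomycin, and the duplicate wells of a bird were pooled before RNA isolation. The libraries were paired through the biological replicate number, which names the bird, and bird entered the test as a block.

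Bacteria of this kind are sensed by pattern recognition receptors that read out cell wall lipoproteins, peptidoglycan and nucleic acids. In birds and mammals alike, signalling from these receptors through NF-kB and MAP kinases turns on cytokines, chemokines that draw in heterophils (the avian counterpart of neutrophils) and lymphocytes, and secreted antimicrobial proteins. Antigen presenting cells then mature, which raises costimulatory molecules and MHC class II, while activated lymphocytes raise growth factor receptors and, when they divide, genes of replication and biosynthesis.

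BV-treated PBMCs had 21778481 to 27815065 reads on genes per library (median 24548928) and untreated PBMCs had 20189066 to 29764271 (median 24246080). The number of genes detected was 16066 to 16591 with BV and 15108 to 17200 in the control. Levels are given below as normalized read counts, the deposited counts divided by a size factor per library, so that they compare libraries but not genes of different length. The label PBMC was met by T cell, B cell and monocyte transcripts in every library, beside thrombocyte, heterophil and erythrocyte transcripts. The summed level of the thrombocyte markers separated the birds, since it lay between 53234 and 129260 in the 4 libraries of birds 1 and 2 and between 6710 and 11264 in the 8 libraries of birds 3 to 6. Values from bulk RNA cannot tell fewer cells of a type from less RNA per cell.

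Of 23910 genes in the files, 12866 had enough reads to be tested, and 148 of them differed between BV-treated and untreated PBMCs at an adjusted p (padj) under 0.05, which is 1.15% of the genes tested. Here and below, padj comes from edgeR's quasi-likelihood test with bird as block and Benjamini-Hochberg adjustment over all genes tested, and a gene is called where this padj is under 0.05. Expression was higher with BV for 93 genes (0.723% of those tested) and lower for 55 (0.427%). Counts of called list members below are to be read beside these shares. The median Log2 FC (log2 fold change of BV over control) of all genes tested was 0.000746, that of the 93 higher genes was 0.83 and that of the 55 lower genes was −0.38. A Log2 FC above 1 was found for 36 of the higher genes, and below −1 for 2 of the lower genes, while 35 higher genes stayed under 0.5 and 40 lower genes above −0.5. When an absolute Log2 FC above 1.5 was also asked for, 16 genes (0.124% of those tested) remained, and all 16 were higher with BV.

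The calls rested on the pairing of the birds. Without bird as a block, 0 of the 12866 genes passed padj in edgeR's test, and 335 had an unadjusted p under 0.05, against 1993 with the block. DESeq2 with the same block called 262 genes, 145 of the 148 among them. When one bird was left out, 41 genes were called without bird 1, 74 without bird 2, 69 without bird 4, and 105 to 214 without one of birds 3, 5 or 6. Of the 148 genes, 35 were called in each of these 6 fits, 27 of them higher and 8 lower with BV. The direction of every called gene that could be tested was the same in all 6 fits. These fits reuse the birds that selected the genes, which favours the same direction.

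**Figure D1:**
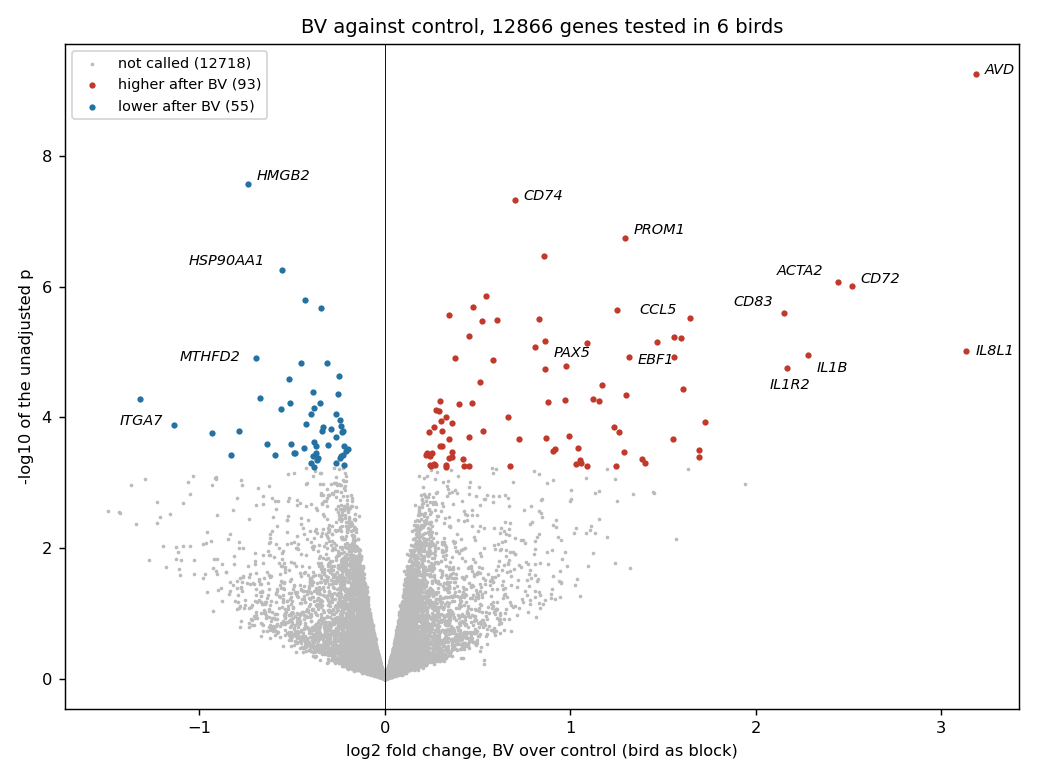
Log2 FC of BV over control (x axis) against −log10 of the unadjusted p from edgeR's test with bird as block (y axis) for 12866 genes, 1 point per gene. The 93 genes called higher with BV (red) reach a Log2 FC of 3.19 for AVD, while the 55 called lower (blue) mostly lie between −0.20 and −1.

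Of the called genes with a symbol that were higher in 6 of 6 birds, AVD and the chemokine IL8L1 had the largest Log2 FC. AVD encodes avidin, a biotin-binding protein of egg white that chicken macrophages also make during inflammation. Its level was 67.8 to 785 normalized counts with BV (median 146) and 4.44 to 82.4 in the control (median 11.3), with a Log2 FC of 3.19 (SE 0.24, padj = 7.2e-06). AVD was higher with BV in 6 of 6 birds, although the bird with the highest control exceeded the bird with the lowest BV value. IL8L1, a chicken CXC chemokine related to IL8 that attracts heterophils, had 31 to 105 normalized counts with BV (median 55.5) and 0 to 20.1 in the control (median 4.46). The 2 ranges did not overlap, and the Log2 FC was 3.13 (SE 0.48, padj = 0.0047). Reads of IL8L1 and its neighbour IL8 may be shared between these similar genes. IL8 itself had a Log2 FC of 1.94 and did not pass the test (padj = 0.067).

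CCL5, a chemokine for T cells and monocytes, reached 75.1 to 589 normalized counts with BV (median 150) and 7.27 to 202 in the control (median 50.2). It was higher in 6 of 6 birds (Log2 FC 1.65, SE 0.23, padj = 0.0023). CCL4, another attractant of monocytes and T cells that has 2 entries in the files, had 79.3 to 886 normalized counts with BV at the entry ENSGALG00000032717 (median 240) and 29.3 to 348 in the control (median 105). This entry was higher in 5 of 6 birds (Log2 FC 1.12, SE 0.19, padj = 0.014), but not when bird 1 was left out (padj = 0.087). Of 25 chemokines listed, 5 had enough reads to be tested and 3 rose, against 0.723% called higher among all genes tested. CXCL13L2 (Log2 FC 0.62, padj = 0.48) and IL8 were not called by edgeR. DESeq2 with the block also called IL8. The median Log2 FC of these 5 was 1.65. A gene can have enough reads through the condition in which it is high, so this median is a description of the tested genes only.

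IL1B, the central inflammatory cytokine of monocytes, had 6.57 to 151 normalized counts with BV (median 32.8) and 0.822 to 21.0 in the control (median 9.16). The Log2 FC was 2.28 (SE 0.37, padj = 0.0049), and padj was 0.14 when bird 1 was left out. IL1R2, the decoy receptor that binds interleukin 1 without signalling, had 32.8 to 205 normalized counts with BV (median 84.6) and 4.84 to 46.1 in the control (median 11.8), with a Log2 FC of 2.17 (SE 0.34, padj = 0.0060). Agonist and decoy were both higher in 6 of 6 birds, but IL1B hardly differed in bird 6 (6.57 normalized counts with BV and 6.21 in the control). TNFRSF6B, a soluble decoy receptor for ligands of the TNF family, was also higher in 6 of 6 birds at low counts (7.93 to 51.3 with BV and 0 to 16.5 in the control, Log2 FC 1.69, padj = 0.043), yet it lost its call whichever bird was left out. Among 11 testable cytokines of the list, IL1B was the only gene to rise, and IL16, a T cell attractant, fell by 0.24 on the log2 scale (padj = 0.024). The shares over all genes tested were 0.723% called higher and 0.427% called lower.

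Of 37 genes listed for antimicrobial and secreted defence, 9 had enough reads to be tested, which a gene can reach through the condition in which it is high. Of all genes tested, 0.723% were called higher. Besides AVD, 3 of them rose, namely LYG2 (goose-type lysozyme, which cleaves peptidoglycan, Log2 FC 1.73, padj = 0.022), MMP9 (a gelatinase stored in heterophil granules, Log2 FC 1.55, padj = 0.030) and AvBD1 (a beta-defensin, Log2 FC 1.04, padj = 0.037). A gene annotated as DEFB4A, by its name also a beta-defensin, had 2.50 to 58.5 normalized counts with BV (median 25.4) and 0 to 27.2 in the control (median 8.39, Log2 FC 1.40, padj = 0.049). AvBD1 and DEFB4A each lost their call whichever bird was left out, LYG2 in 5 of the 6 fits and MMP9 in 4. S100A12 (Log2 FC 1.44, padj = 0.079) and EXFABP (Log2 FC 1.34, padj = 0.080), a calgranulin and a siderophore-binding lipocalin, did not pass in edgeR, while DESeq2 called S100A12.

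LYG2, MMP9 and AvBD1 are also heterophil markers, and heterophils are not part of a pure PBMC preparation. The summed level of 8 heterophil markers was 329 to 1694 normalized counts with BV (median 937) and 213 to 1319 in the control (median 525), higher with BV in 6 of 6 birds. This sum includes LYG2, MMP9 and AvBD1, so its gain partly restates their calls and is not separate evidence on heterophils. By bird, the log2 ratio of these sums was 0.16 to 0.36 in birds 1 to 4, 1.13 in bird 5 and 0.93 in bird 6. Not all members moved together, since CSF3R, the receptor for the heterophil growth factor, had a Log2 FC of −0.22 (padj = 0.65) and CXCR1, an interleukin 8 receptor, 0.22 (padj = 0.83). Whether heterophil RNA had a part in the gains of secreted defence genes was not tested.

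Several very low genes had too few reads to be tested here. When every gene with at least 2 reads over the 24 libraries was tested instead (20266 genes), 10 genes were called that had not been tested before, 9 of them higher with BV. With bird as block, edgeR fits of genes with few reads can call unchanged genes, so these 10 calls are weaker than those above. The reads below describe genes picked by these same reads. CSF3, which encodes the heterophil growth factor G-CSF, had 59 reads over the 6 BV libraries and 2 over the 6 control libraries, a ratio of 29.4 after scaling by library size (95% exact interval 7.79 to 249, counting error only). It was higher in 5 of 6 birds, and 36 of its 59 reads came from bird 1, without which 23 and 2 reads gave a ratio of 10.7 (2.65 to 93.9). IL17C, an epithelial-type cytokine of antibacterial defence, had 116 reads with BV and 9 in the control, but was higher in 4 of 6 birds only, and without bird 1 it had 52 and 7. MLKL, the executioner of necroptosis, had 116 reads with BV and 21 in the control, and all 6 birds had more with BV. The second entry of CCL4 (ENSGALG00000034478) had 177 reads with BV and 29 in the control, and 65 and 12 without bird 1. STEAP4 (79 reads with BV and 4 in the control), a metalloreductase, EPS8L3 (89 and 20) and GLUL (107 and 31), glutamine synthetase, completed the genes with a symbol.

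Enzymes of immune metabolism and lipid mediators were represented by a few genes. ACOD1, which makes the antibacterial metabolite itaconate in activated macrophages, had 23.8 to 238 normalized counts with BV (median 54.8) and 6.21 to 58.1 in the control (median 18, Log2 FC 1.56, SE 0.25, padj = 0.0049). Without bird 1, its padj was 0.11. PTGS2, the inducible cyclooxygenase of prostaglandin synthesis, had 671 to 1015 normalized counts with BV (median 953) and 439 to 840 in the control (median 665). It changed less (Log2 FC 0.45, SE 0.07, padj = 0.0035), in 6 of 6 birds and in each leave-one-out fit. NOS2, the inducible nitric oxide synthase, had a Log2 FC of 0.45 and did not pass in edgeR (padj = 0.070), though DESeq2 called it, and 26 of the 28 genes of this list were not called by edgeR. ACSL1, which activates long-chain fatty acids, rose as the only called gene of 28 in lipid handling (Log2 FC 0.98, padj = 0.0058, and 0.064 without bird 1). Of all genes tested, 1.15% were called. ALDH1A3, which makes retinoic acid, had a Log2 FC of 1.30 (padj = 0.013, and 0.14 without bird 1).

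**Figure D2:**
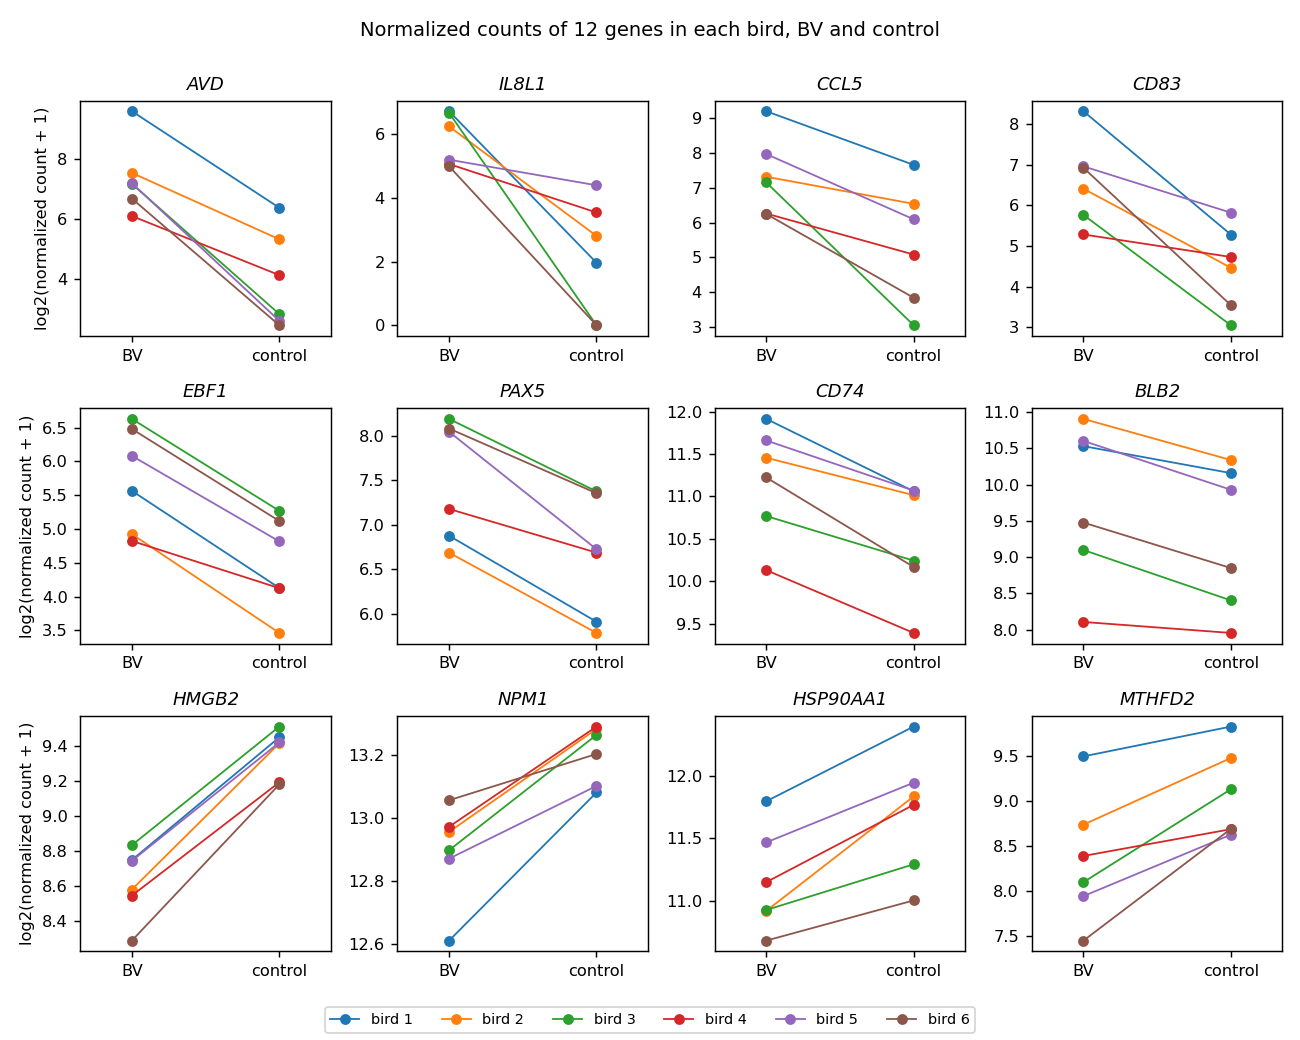
Normalized read counts on a log2(count + 1) scale (y axis) of 12 genes in BV-treated PBMCs (left) and control (right), with 1 line per bird joining its 2 libraries. The lines of all 6 birds run down to the control for AVD to BLB2 and up to the control for HMGB2 to MTHFD2, while the starting level varies between birds.

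Some genes of antigen presenting cell maturation rose. CD83, a surface marker of mature dendritic cells that is also induced on activated lymphocytes, had 37.9 to 317 normalized counts with BV (median 102) and 7.27 to 55.4 in the control (median 23.3). Its Log2 FC was 2.15 (SE 0.29, padj = 0.0023), and it was called in each leave-one-out fit. LAMP3, a lysosomal membrane protein of mature dendritic cells, had 45.8 to 189 normalized counts with BV (median 82.9) and 20.0 to 46.8 in the control (median 30.2, Log2 FC 1.61, padj = 0.011, and 0.069 without bird 1). ICOSLG, the ligand of the T cell costimulator ICOS, had 59.9 to 140 normalized counts with BV (median 92.2) and 20.6 to 67.4 in the control (median 43.7, Log2 FC 1.17, padj = 0.0099, and 0.074 without bird 1). ICOS itself changed by a smaller amount (Log2 FC 0.33, padj = 0.0497) and lost its call whichever bird was left out.

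Of 18 tested genes of dendritic cell maturation and costimulation, 5 rose and none fell, against 0.723% called higher and 0.427% lower among all genes tested. MARCKSL1, an actin-regulating substrate of protein kinase C, was among the 5 (Log2 FC 1.05, padj = 0.044, called in 1 of the 6 leave-one-out fits). The costimulators CD40 (Log2 FC 0.20, padj = 0.56) and CD80 (−0.01, padj = 0.98) and the homing receptor CCR7 (0.17, padj = 0.15) did not pass. CD28, a costimulatory receptor of T cells, was called by DESeq2 and not by edgeR (Log2 FC 0.20, padj = 0.080). The median Log2 FC of the list was 0.28.

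The invariant chain and both classical beta chains of MHC class II rose. CD74, the invariant chain that guides MHC class II through the cell, had 1120 to 3856 normalized counts with BV (median 2599) and 671 to 2147 in the control (median 1639), with a Log2 FC of 0.70 (SE 0.07, padj = 2.0e-04). BLB2 and BLB1, the classical MHC class II beta chains of chickens, had Log2 FCs of 0.53 (SE 0.08, padj = 0.0023) and 0.58 (SE 0.09, padj = 0.0052). BLB2 reached 275 to 1915 normalized counts with BV (median 1094) and 247 to 1293 in the control (median 717). All 3 genes were higher in 6 of 6 birds and called in each leave-one-out fit, although birds differed so much in level that the groups overlapped. As BLB1 and BLB2 are near-identical, their reads may not be fully separated. The peptide-loading chaperones DMB2 (Log2 FC 1.13, padj = 0.079) and DMA (1.15, padj = 0.11) did not pass in edgeR, and DESeq2 called DMB2. The class I genes BF1 (0.07, padj = 0.50), BF2 (0.12, padj = 0.24) and B2M (0.14, padj = 0.18), whose product is the class I light chain, were not called. In the antigen presentation list, 3 of 13 tested genes rose, against 0.723% called higher among all genes tested. All 13 Log2 FCs were positive, with a median of 0.50. MARCH1, a ubiquitin ligase that removes MHC class II from the surface, and IFI30, a lysosomal thiol reductase of antigen processing, were picked after their values had been seen. They had Log2 FCs of 0.67 (padj = 0.020) and 0.33 (padj = 0.020), and their highest padj with a bird left out was 0.082 and 0.12.

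Some B cell genes rose as well. CD72, an inhibitory coreceptor of B cells, had 24.4 to 153 normalized counts with BV (median 53.1) and 5.75 to 20.6 in the control (median 9.50, Log2 FC 2.52, SE 0.33, padj = 0.0016). CD72AG, a separate gene annotated under the CD72 name, had 68.2 to 174 normalized counts with BV (median 97.3) and 25.4 to 57.5 in the control (median 35.6, Log2 FC 1.47, SE 0.22, padj = 0.0038). Neither pair of ranges overlapped, but reads may be shared between these similar genes. The transcription factors of B cell identity moved with them. EBF1 had 27.3 to 97.9 normalized counts with BV (median 56.5) and 10.0 to 37.5 in the control (median 21.8, Log2 FC 1.32, SE 0.21, padj = 0.0049). PAX5 had 102 to 290 normalized counts with BV (median 203.1) and 54.1 to 165 in the control (median 103, Log2 FC 0.86, SE 0.13, padj = 0.0038). BCL11A had a Log2 FC of 0.81 (SE 0.13, padj = 0.0042). Each of these 5 genes was higher in 6 of 6 birds and was called in each leave-one-out fit.

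Of the 19 tested B cell and plasma cell markers, these 5 rose and 1 fell, against 0.723% called higher and 0.427% lower among all genes tested. The lower gene was XBP1, a factor of secretory and plasma cells that every cell also uses in the unfolded protein response (Log2 FC −0.34, SE 0.07, padj = 0.026). The B cell receptor component CD79B had a Log2 FC of 0.15 (padj = 0.30), and BTK, the kinase of the B cell receptor, had 0.06 (padj = 0.71). The adaptor BANK1 (0.67, padj = 0.091) and the survival receptor TNFRSF13C (0.84, padj = 0.22) did not pass either. The list had a median Log2 FC of 0.67, but its summed level was about the same, with 11340 to 15590 normalized counts with BV (median 12740) and 11160 to 15460 in the control (median 12620), higher with BV in 3 of 6 birds. No single marker stands for B cell number here, and the part of cell number in the gains was not tested. SPI1, a transcription factor that B cells share with myeloid cells, had a Log2 FC of 0.68 (padj = 0.0498) and lost its call whichever bird was left out.

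Some T cell genes were called, at small Log2 FCs. CD4 had 2448 to 5514 normalized counts with BV (median 3620) and 2001 to 4318 in the control (median 3195, Log2 FC 0.24, SE 0.05, padj = 0.042), and was the only gene of 21 tested T cell markers that edgeR called. DESeq2 called CD4 and CD28. As edgeR called 1.15% of all genes tested, 1 call among 21 markers says little about that list. IL2RA, the alpha chain of the interleukin 2 receptor that activated and regulatory T cells carry (CD25), had 636 to 1284 normalized counts with BV (median 888) and 537 to 914 in the control (median 573). Its Log2 FC was 0.51 (SE 0.09, padj = 0.0089), and padj was 0.060 without bird 1. IL7R, the survival receptor of resting T cells, had a Log2 FC of 0.30 (SE 0.06, padj = 0.036), the homing receptor CXCR4 had 0.24 (SE 0.05, padj = 0.026) and STAT4, which transmits interleukin 12 signals, had 0.30 (SE 0.06, padj = 0.022).

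All 5 of these genes were higher in 6 of 6 birds, and each lost its call in at least 1 leave-one-out fit, with a highest padj of 0.18 for CD4, 0.16 for IL7R, 0.11 for CXCR4 and 0.10 for STAT4. The summed T cell markers were higher with BV in 4 of 6 birds, with small log2 ratios from −0.06 in bird 3 to 0.09 in bird 2. Of 41 tested cytokine and chemokine receptors, 4 rose (IL1R2, IL2RA, CXCR4 and IL7R), none fell, and the median Log2 FC was 0.15. Among all genes tested, 0.723% were called higher. Among genes picked after their values had been seen, TNFSF8, the CD30 ligand of activated T cells, had 1244 to 2642 normalized counts with BV (median 1750) and 838 to 1889 in the control (median 1238). Its Log2 FC of 0.48 (SE 0.07, padj = 0.0023) was called in each leave-one-out fit. P2RX7, an ATP-gated ion channel of leukocytes (0.29, padj = 0.014, and up to 0.082 with a bird left out), and TOX, a T cell transcription factor (0.34, padj = 0.030, and up to 0.14 with a bird left out), were picked in the same way.

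**Figure D3:**
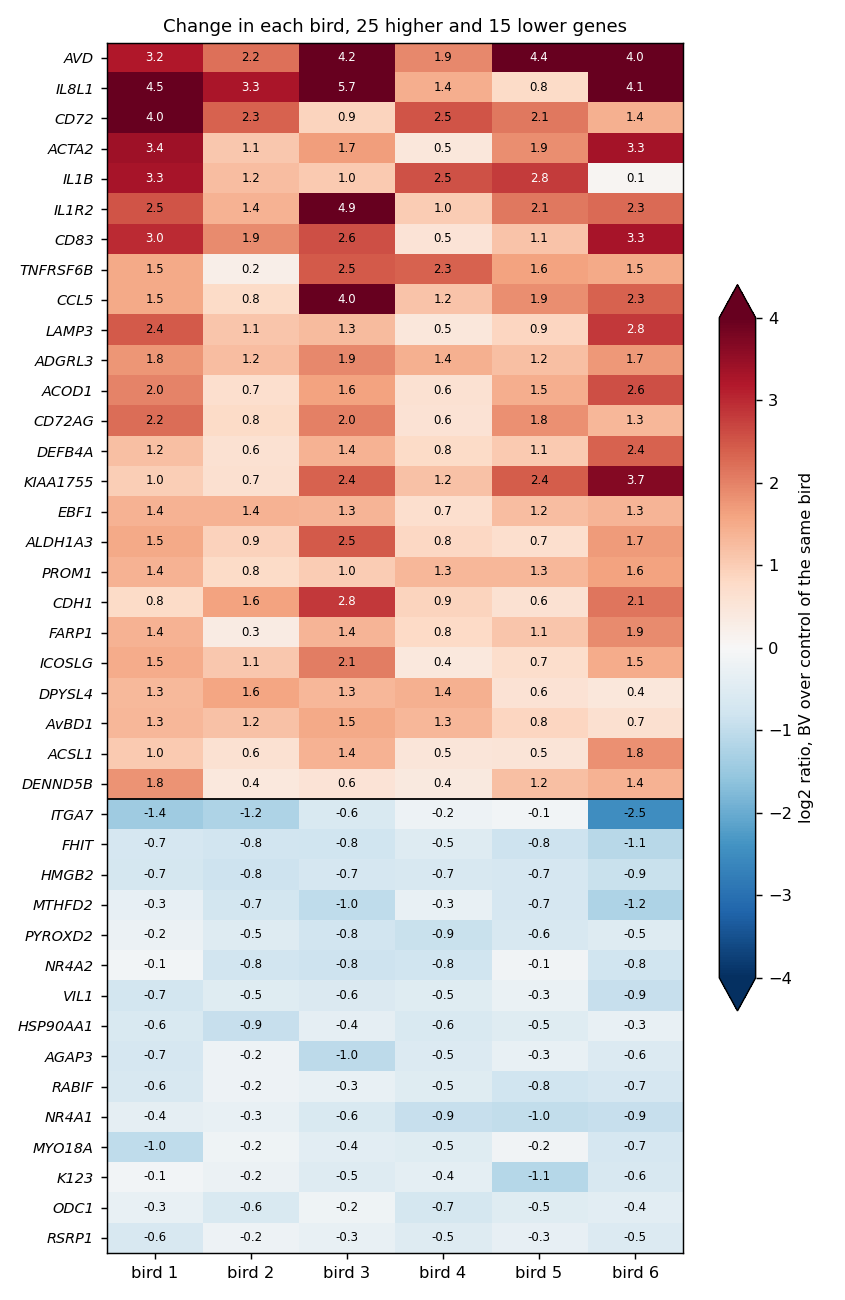
Log2 ratio of BV over control within each bird (columns) for the 25 genes with the highest and the 15 with the lowest Log2 FC among those with a symbol that were called and moved the same way in 6 of 6 birds (rows). The colours saturate at the ends of the scale, and the cells print the value. The printed ratios run from 0.8 to 5.7 for IL8L1, while HMGB2 stays between −0.7 and −0.9. A small count was added before the ratios were taken. IL8L1 had 0 normalized counts in the controls of birds 3 and 6, so its ratios there depend on that added count.

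Other genes, among the 25 with the highest Log2 FC of the called genes higher in 6 of 6 birds, are best known outside immune cells. PROM1 (CD133), a membrane glycoprotein of progenitor and epithelial cells, had 40.6 to 357 normalized counts with BV (median 151) and 23.0 to 177 in the control (median 58.3). Its Log2 FC of 1.29 (SE 0.15, padj = 5.7e-04) was called in each leave-one-out fit, with a highest padj of 0.0043. ADGRL3, an adhesion G protein-coupled receptor known from neurons, had a Log2 FC of 1.60 (padj = 0.0035) and was likewise called in each leave-one-out fit. CDH1 (E-cadherin, 1.26, padj = 0.026), FARP1 (1.24, padj = 0.024), DENND5B (a Rab regulator, 0.97, padj = 0.014), DPYSL4 (a cytoskeletal protein of neurons, 1.09, padj = 0.0496) and KIAA1755 (1.39, padj = 0.044) lost their calls in 1 to 5 of those fits. TFEC, which is not among these 25 and encodes a transcription factor of the MITF family found in mouse macrophages, had a Log2 FC of 1.70 (padj = 0.039, 5 of 6 birds) and lost its call in 4.

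ACTA2, the smooth muscle actin, had 14.7 to 160 normalized counts with BV (median 68.2) and 6.01 to 20.1 in the control (median 13.3, Log2 FC 2.44, SE 0.32, padj = 0.0016). It was called in each leave-one-out fit. It stood alone in its list, since the other 13 of 14 tested stromal and contractile genes had negative Log2 FCs, none of them called. The abundant cytoplasmic actins ACTB and ACTG1, picked after their values had been seen, moved the other way. ACTG1 had 53954 to 63672 normalized counts with BV (median 59336) and 59642 to 80511 in the control (median 71974), with a Log2 FC of −0.26 (SE 0.05, padj = 0.030). For ACTB the Log2 FC was −0.23 (SE 0.05, padj = 0.026). Actins share much of their coding sequence, so reads may be split among them. The cytoskeletal linkers VCL (vinculin, −0.26, padj = 0.018) and SPTAN1 (spectrin, −0.25, padj = 0.0078), picked in the same way, were also lower in 6 of 6 birds. With a bird left out, padj reached 0.14 for both actins and 0.11 for VCL, and stayed under 0.05 for SPTAN1.

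Chromatin proteins and chaperones were among the losses. HMGB2, a DNA-bending chromatin protein abundant in dividing and lymphoid cells, had 312 to 455 normalized counts with BV (median 405) and 579 to 729 in the control (median 683), with no overlap. Its Log2 FC was −0.74 (SE 0.07, padj = 1.7e-04), and it was lower in 6 of 6 birds. NPM1 (nucleophosmin), a chaperone of histones and ribosome assembly, had 6249 to 8518 normalized counts with BV (median 7786) and 8665 to 10022 in the control (median 9636), again with no overlap (Log2 FC −0.31, SE 0.05, padj = 0.0054). HMGN4, a nucleosome-binding protein, had 4296 to 6034 normalized counts with BV (median 5228) and 5630 to 7336 in the control (median 6638, Log2 FC −0.34, SE 0.05, padj = 0.0023).

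These 3 genes were called in each leave-one-out fit, and of 25 tested chromatin proteins edgeR called no other. The relatives HMGN1 (Log2 FC −0.25, padj = 0.052) and HMGB1 (0.01, padj = 0.97) and the histone variant H2AFZ (0.00, padj = 0.99) were not called by edgeR, and DESeq2 called HMGN1. HMGB2 was also the only call among 45 genes of DNA replication and mitosis, whose median Log2 FC was −0.02. Of all genes tested, 1.15% were called, so 1 call among 45 genes says little about that list. The replication licensing factor MCM2 (−0.02, padj = 0.88), the polymerase clamp PCNA (−0.07, padj = 0.71) and the topoisomerase TOP2A (−0.02, padj = 0.95) did not pass.

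HSP90AA1, the inducible cytosolic HSP90, had 1643 to 3560 normalized counts with BV (median 2110) and 2054 to 5387 in the control (median 3573). Its Log2 FC was −0.55 (SE 0.07, padj = 0.0012), and it was called in each leave-one-out fit. ATF4, the transcription factor of the amino acid and stress response, had a Log2 FC of −0.24 (SE 0.05, padj = 0.021). With XBP1, 3 of 31 genes of heat shock and protein folding fell and none rose, and the median Log2 FC was −0.06. Among all genes tested, 0.427% were called lower. The constitutive chaperone HSPA8 (−0.33, padj = 0.067) and the endoplasmic reticulum chaperone HSPA5 (−0.07, padj = 0.63) did not pass in edgeR, and DESeq2 called HSPA8. ATF4 and XBP1 each lost their call in 3 leave-one-out fits, with a highest padj of 0.082 and 0.14.

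A pair of enzymes of growing cells fell as well. MTHFD2, a mitochondrial folate enzyme, had 174 to 723 normalized counts with BV (median 304) and 395 to 911 in the control (median 487, Log2 FC −0.70, SE 0.11, padj = 0.0049). ODC1, the first enzyme of polyamine synthesis, had 607 to 1107 normalized counts with BV (median 753) and 718 to 1354 in the control (median 1055, Log2 FC −0.45, SE 0.07, padj = 0.0054). Both were called in each leave-one-out fit. Cytosolic ribosomal protein genes, of which 63 were tested, had 0 calls and a median Log2 FC of −0.08, with 7 of 63 positive. Of them, 6 had an unadjusted p under 0.05 and DESeq2 called RPS6. Oxidative phosphorylation (48 tested) and glycolysis and hypoxia (27 tested) had 0 calls by edgeR and by DESeq2, medians of −0.03 and −0.05, and 1 and 5 genes at an unadjusted p under 0.05. At the 1.15% called among all genes tested, 0 calls in lists of these sizes, including the ribosomal list, are not a result about their genes.

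Nuclear receptors of the immediate early class were lower. NR4A2 had 119 to 185 normalized counts with BV (median 141) and 194 to 251 in the control (median 222), with no overlap (Log2 FC −0.59, SE 0.13, padj = 0.041). NR4A1, which antigen receptor signals induce in lymphocytes, had 27.2 to 2205 normalized counts with BV (median 76.0) and 53.2 to 2823 in the control (median 130, Log2 FC −0.51, padj = 0.035). Its wide range came from birds 1 and 2. Of 21 immediate early factors, these 2 fell and none rose, against 0.427% called lower among all genes tested. FOS had a Log2 FC of −1.03 (padj = 0.059, called by DESeq2) and EGR1 had −0.04 (padj = 0.92). PIM3, a survival kinase (−0.33, padj = 0.024), and MCL1, an inhibitor of apoptosis (−0.26, padj = 0.049), were lower in 6 of 6 birds, as was K123 (−0.48, padj = 0.039). Each of the 5 called genes lost its call in 3 to 5 leave-one-out fits.

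Among the remaining low genes, ITGA7, an integrin that binds laminin, had the lowest Log2 FC of the called genes with a symbol (−1.14, SE 0.23, padj = 0.024), but padj was 0.38 without bird 1. FHIT, a nucleoside hydrolase, had 24.6 to 47.2 normalized counts with BV (median 37.2) and 45.3 to 87.9 in the control (median 58.2, Log2 FC −0.83, padj = 0.041). PYROXD2 (−0.64, padj = 0.035), VIL1 (villin, which bundles actin, −0.56, padj = 0.016) and RABIF (a Rab-binding protein, −0.51, padj = 0.014) were also lower in 6 of 6 birds, and all 4 of these genes lost their call in 2 to 6 leave-one-out fits. RSRP1, a protein linked to splicing, was called in each (−0.43, SE 0.06, padj = 0.0020).

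Several lower genes had a far higher level in birds 1 and 2, the birds with the high thrombocyte marker sums. MYO18A, an unconventional myosin, had 608 to 15182 normalized counts with BV (median 1272) and 985 to 30346 in the control (median 1586, Log2 FC −0.49, padj = 0.039). AGAP3, a GTPase activator, had 120 to 4490 normalized counts with BV (median 221) and 211 to 7081 in the control (median 295, Log2 FC −0.52, padj = 0.0082). With a bird left out, padj reached 0.30 for MYO18A (without bird 6) and 0.14 for AGAP3 (without bird 1). Both control libraries of birds 1 and 2 exceeded all those of birds 3 to 6 for 22 of the 55 genes that fell (40%), for 19 of the 93 that rose (20.4%) and for 18.7% of all genes tested. The thrombocyte markers gave 0 calls by edgeR and by DESeq2 among 17 tested genes, 1 at an unadjusted p under 0.05, and a median Log2 FC of −0.03. At the 1.15% called among all genes tested, 0 calls among 17 genes are not a result about these markers. Their sum was 7465 to 107700 normalized counts with BV (median 10090) and 6710 to 129300 in the control (median 11110), with log2 ratios of −0.26 in bird 1 and −0.02 in bird 2. The part of thrombocyte RNA in these losses was not tested.

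For other gene groups that bacteria often move, calls can be read beside the 1.15% called among all genes tested. At that share, 0 calls in lists of the sizes below are not a result about their genes. The 26 pattern recognition receptors and adaptors and the 22 genes of NF-kB and its inhibitors had 0 calls each, with median Log2 FCs of 0.00 and 0.03, and an unadjusted p under 0.05 for 5 receptors or adaptors and 2 NF-kB genes. DESeq2 called none of the receptors and, of the NF-kB genes, NFKBIZ. NFKBIA, the NF-kB inhibitor that NF-kB itself induces, had a Log2 FC of 0.40 (padj = 0.46) and TNFAIP3 had 0.27 (padj = 0.40). MAP kinase and JAK/STAT feedback (27 tested) had STAT4 higher and PIM3 lower, apoptosis (30 tested) had MCL1 lower, lysosome and autophagy (37 tested) had LAMP3 and TFEC higher, and adhesion and matrix (21 tested) had MMP9 higher, with no other edgeR call in these lists. DESeq2 also called CTSD, a lysosomal protease, and SPP1 (osteopontin), whose padj in edgeR was 0.082 and 0.15. Of 25 interferon response genes, 1 was called, RNF213, a large ubiquitin ligase, with a Log2 FC of −0.20 (padj = 0.038). The antiviral gene MX1 (0.18, padj = 0.35) and IRF7 (0.08, padj = 0.88), the regulator of type I interferons, did not pass. Cholesterol synthesis (22 tested), iron and haem handling (22 tested) and NK and cytotoxic markers (8 tested) had 0 calls by edgeR and by DESeq2, with 5, 3 and 1 genes at an unadjusted p under 0.05. As 1993 of the 12866 genes had an unadjusted p under 0.05, a gene without a call may still have changed by a small amount.

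Markers of other blood cells gave few calls, to be read beside the 1.15% called among all genes tested (0.723% higher). At that share, 1 call among 22 monocyte and macrophage markers is not a result about these cells. Of 22 monocyte and macrophage markers, SPI1 was the only edgeR call and DESeq2 called SPI1 and CTSD, the median Log2 FC was −0.05, and the summed level was 13860 to 39890 normalized counts with BV (median 19480) and 12960 to 48500 in the control (median 19690). CSF1R, the receptor for the macrophage growth factor, had a Log2 FC of 0.42 (padj = 0.33) and CD14, a coreceptor for lipopolysaccharide, −0.15 (padj = 0.90). Among 17 erythrocyte markers, HBA1, an adult alpha globin (0.83, SE 0.12, padj = 0.0023), and SLC4A1, the anion exchanger of red cells (0.88, SE 0.16, padj = 0.014), rose in 5 of 6 birds, and DESeq2 also called HBAD. HBA1 was called in each leave-one-out fit, and SLC4A1 had a padj of 0.069 without bird 3. The summed erythrocyte markers, HBA1 and SLC4A1 among them, were higher with BV in 4 of 6 birds. The log2 ratio was 0.76 in bird 5 and 0.40 in bird 3, but only 0.03 in bird 2 and 0.01 in bird 4. It was −0.09 in bird 1 and −0.01 in bird 6.

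**Figure D4:**
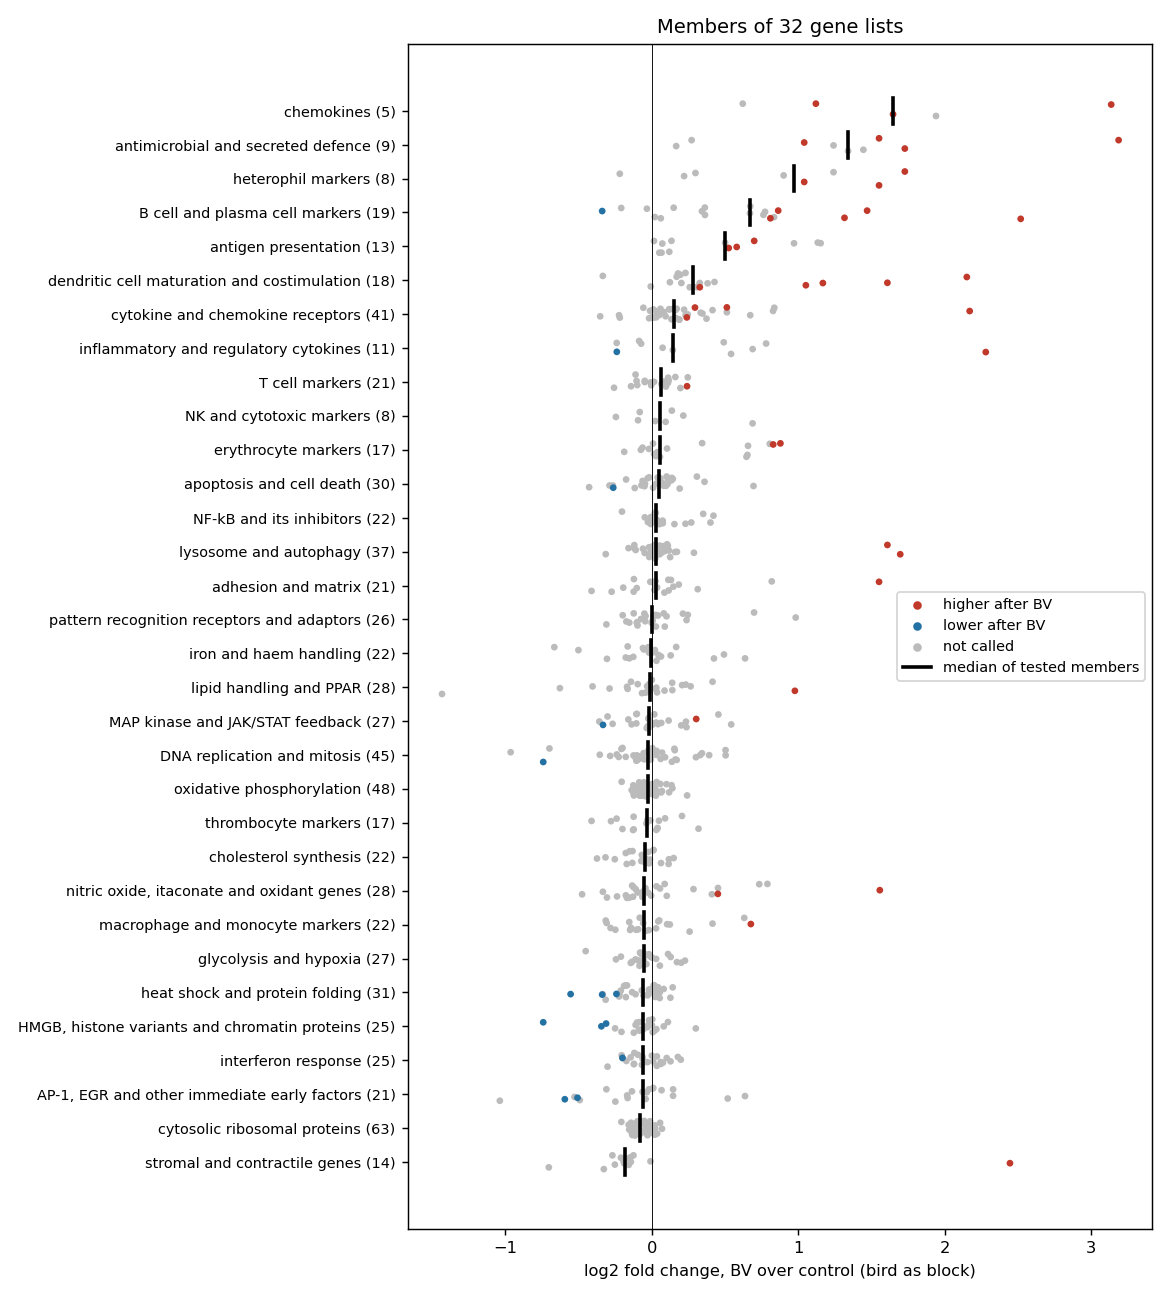
Log2 FC of BV over control (x axis) for every tested member of 32 gene lists (rows, with the number tested), 1 point per gene, red where called higher, blue where called lower and grey where not called. Black bars are the medians, which run from 1.65 for the 5 chemokines to −0.18 for the 14 stromal and contractile genes, while most lists lie around 0. A gene can be tested through the condition in which it is high, so these medians are descriptions.

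Of the genes without a symbol, 23 rose and 7 fell. ENSGALG00000045596 had 38.8 to 153 normalized counts with BV (median 48.2) and 7.99 to 36.8 in the control (median 20.3), with no overlap (Log2 FC 1.56, padj = 0.0035). ENSGALG00000051258 had a Log2 FC of 1.29 (padj = 0.039). ENSGALG00000004627 had 11.3 to 27.7 normalized counts with BV (median 16.4) and 19.4 to 78.1 in the control (median 41.8, Log2 FC −1.32, padj = 0.014). ENSGALG00000038584 had 24.4 to 50.1 normalized counts with BV (median 36.3) and 52.1 to 85.5 in the control (median 69.2), with no overlap (Log2 FC −0.93, padj = 0.027). Each of the 4 lost its call in at least 1 leave-one-out fit.

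Ranges that did not overlap were found for 17 of all genes tested (0.132%) and for 10 of the 148 called, 6 higher and 4 lower. Besides the genes given above with no overlap, DPYSL4 was one of these, with 37.1 to 46.3 normalized counts with BV (median 41.8) and 11.0 to 32.8 in the control (median 16.0). Of the 93 higher genes, 81 were higher in 6 of 6 birds, and of the 55 lower genes, 53 were lower in 6 of 6. The median log2 ratio of the 93 higher genes was smallest in bird 2 (0.44) and largest in bird 6 (0.83). For the 55 lower genes it was −0.22 in bird 3 and −0.50 in bird 6. These counts and medians describe genes that a paired test on the same libraries selected, which favours agreement between birds. The share of all genes tested that moved alike in 6 of 6 birds is not given here.

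In the library numbers of the labels, the BV, control and BS libraries of birds 3 to 6 follow those of birds 1 and 2 without a gap, and the labels do not say what the numbers mark. The conA libraries are numbered with the others in birds 1 and 2 and apart from them in birds 3 to 6, and the birds were split along this line, which also separates the thrombocyte sums. When the 2 groups of birds were compared within 1 edgeR fit, no gene differed in its BV effect at an adjusted p under 0.05 (smallest adjusted p 0.504), and 296 genes did so at an unadjusted p under 0.05, of which 8 were among the 148. Fitted alone, birds 1 and 2 gave 317 calls and birds 3 to 6 gave 12. A fit of 2 birds estimates its error largely across genes, so these counts do not show a stronger response in birds 1 and 2. Over 147 of the 148 genes, tested in both groups, the median absolute Log2 FC was 0.46 in birds 1 and 2 and 0.47 in birds 3 to 6. These genes were selected over all 6 birds, which favours similar sizes, so the medians do not show an equal response either. Of the 302 calls in birds 1 and 2 that were also tested in birds 3 to 6, 253 (83.8%) had the same direction there and 125 of these an unadjusted p under 0.05, while 4 had the opposite direction at that level. Among all 12554 genes tested in both, 66.5% had the same direction, and all 12 calls in birds 3 to 6 had the direction of birds 1 and 2.

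**Figure D5:**
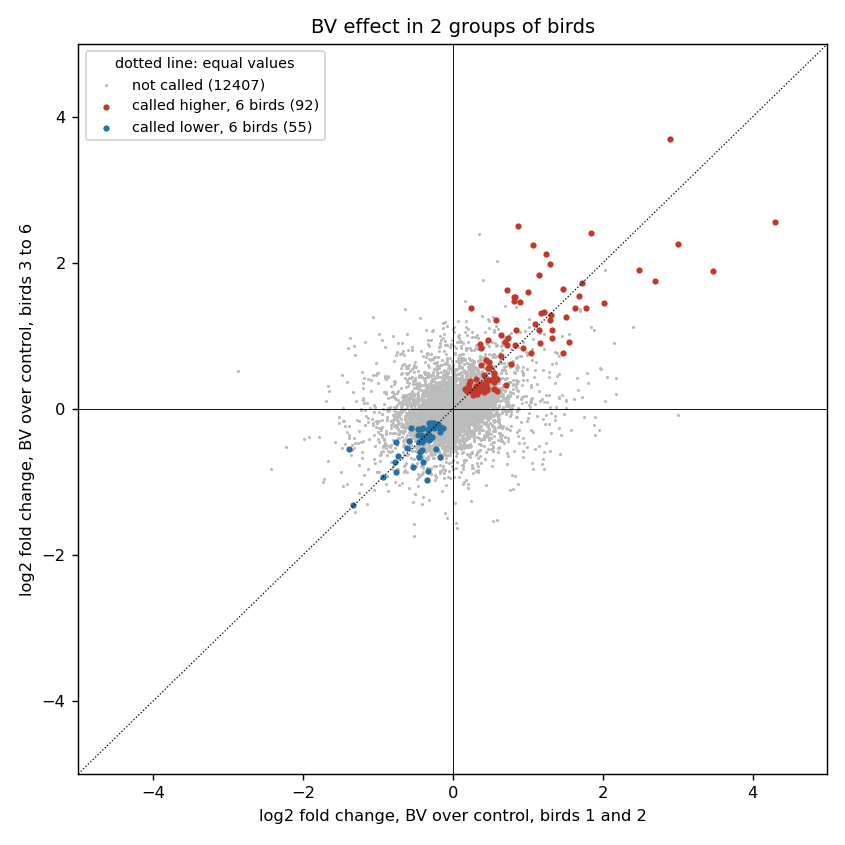
Log2 FC of BV over control in birds 1 and 2 (x axis) and in birds 3 to 6 (y axis), 1 point per gene tested in both, with genes called over all 6 birds in red (higher) and blue (lower). Pearson's r across the 12554 genes, which are not independent, is 0.362, and the 147 called genes that could be placed lie on the same side of 0 in both groups, which their selection on these libraries favours.

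The question whether the strains differed was put to the same birds. Between BV and BS, 0 of 12847 genes (0.0%) passed edgeR's test with bird as block, and 578 had an unadjusted p under 0.05. DESeq2 with the block also called 0, and 443 had an unadjusted p under 0.05. For the 148 genes, the Log2 FC of BV over BS lay between −0.69 and 0.62, and 13 had an unadjusted p under 0.05. These numbers do not show that the strains act alike. Only a difference between BV and BS that exceeds its own variation from bird to bird would pass. BV and BS share their control libraries, so their values are set side by side. AVD had a Log2 FC of 3.19 with BV and 3.65 with BS over the control, CD74 had 0.70 and 0.51, HMGB2 −0.74 and −0.58, and HSP90AA1 −0.55 and −0.72.

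ConA was compared in the same way. Between BV and conA, 1121 of 12861 genes (8.72%) were called, 436 higher and 685 lower with BV. Of the 148 genes, 43 were among them. AVD was higher with BV than with conA by a Log2 FC of 3.89 (padj = 7.2e-06), CD72 by 2.44 (padj = 1.0e-04), IL8L1 by 2.07 (padj = 5.8e-04), IL1R2 by 1.79 (padj = 0.017), IL1B by 1.64 (padj = 0.014) and CCL5 by 1.47 (padj = 3.3e-04). Over the control, these 6 genes had Log2 FCs of −0.75 to 1.12 with conA, and none was called. CD74 (0.65, padj = 0.021) and BLB2 (0.99, padj = 0.030) were also higher with BV than with conA.

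Other genes were lower with BV than with conA. CD83 was lower with BV than with conA by a Log2 FC of −2.82 (padj = 0.0050), MARCKSL1 by −2.46 (padj = 3.0e-06), LAMP3 by −1.96 (padj = 0.0066), ACTA2 by −1.53 (padj = 0.016), CDH1 by −1.53 (padj = 0.016) and FARP1 by −1.27 (padj = 0.033), although all 6 were above the control with both agents. ICOSLG did not pass (−0.12, padj = 0.79). Some genes that fell with BV had positive Log2 FCs with conA. NR4A2 had a Log2 FC over the control of −0.59 with BV and 1.79 with conA, and the difference between BV and conA was −2.39 (padj = 2.9e-05). For NPM1 the values were −0.31 with BV and 1.05 with conA (difference −1.36, padj = 1.0e-05), for HSP90AA1 −0.55 and 1.43 (difference −1.99, padj = 0.012) and for MTHFD2 −0.70 and 0.65 (difference −1.36, padj = 0.018).

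As the conA libraries of birds 3 to 6 are numbered apart from their BV libraries, conA and the library number cannot be told apart in these birds. Birds 1 and 2 alone gave 1276 calls between BV and conA, 935 higher and 341 lower with BV, and birds 3 to 6 alone gave 605, 150 higher and 455 lower. These counts do not compare the size of the response, as a fit of 2 birds estimates its error largely across genes. All 19 genes compared between BV and conA above had the same direction in both groups of birds. All of them but ICOSLG were called over all 6 birds, which favours this, so it does not separate conA from the library number. The calls of CD83 (padj = 0.21), LAMP3 (0.080), ACTA2 (0.26), CDH1 (0.34), HSP90AA1 (0.21) and MTHFD2 (0.15) were lost in birds 1 and 2. Those of IL1R2 (padj = 0.12), IL1B (0.30), CD74 (0.12), BLB2 (0.14) and FARP1 (0.28) were lost in birds 3 to 6.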

How the data were processed

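RNA was sequenced from PBMCs of 6 birds, 1 library per bird and condition, from pooled duplicates. The authors prepared stranded total-RNA libraries, removed adaptors and mapped the paired reads with STAR 2.7.3 on GRCg6a. Which tool counted the reads, and on which annotation, is not given in the sources used here. RNA integrity per library is not used here. The authors deposited read counts per gene (23910 genes) and a normalized signal per gene, the count divided by a DESeq2 1.24.0 size factor (20266 genes).

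From the deposited counts, genes passing filterByExpr (minimum count 10) were tested with edgeR 4.0.16 in R 4.3.3 (TMM, glmQLFit robust, legacy set to FALSE, glmQLFTest, bird and treatment as terms, Benjamini-Hochberg adjustment). A gene can pass this filter through the condition in which it is high, so counts and medians over tested list members are descriptions. DESeq2 1.42.0, other scalings, filters and subsets of birds were tried as alternatives. The fits were also run on simulated counts, and that run is not used here to vouch for the calls. Python 3.11.15 and matplotlib 3.10.9 served for summaries and figures. Intervals cover counting error only.

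Same-numbered libraries come from the same bird. Over 12811 genes, deviations from the group means of same-bird libraries correlated at 0.509 to 0.88, and those of other birds at 0.566 or less (median −0.253). Taking deviations from group means itself makes correlations between different birds tend to be negative, so that median is no measure of the pairing. All 6 BV libraries correlated best with their own control.

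The members and the 32 gene lists were chosen with earlier results of these data known. Named genes were the 25 highest and 15 lowest called genes with a symbol that moved alike in 6 of 6 birds, called list members (up to 6 per list, by p), and 2 higher and 2 lower genes without a symbol. A few genes outside this rule are marked in the text as picked after their values had been seen, and uncalled list members are given as values. Columns of all samples were mapped. Promoters and sequences were not analysed here.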

Additional observations from a re-analysis of the deposited data

Results flagged for a closer look

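Dixon's test, for a library that stands far from its group, was run on the log2(count + 1) scale. It covered 162 groups of 6 libraries, 2 for each of 81 named genes. On this scale 2 groups (1.23%) stood out, where chance would flag about 1 in 20. The log2 scale draws in high values, so a library far from the others in counts need not be flagged. AVD in the BV library of bird 1, with 785 normalized counts against 67.8 to 187 in the other BV libraries, was not flagged. For ENSGALG00000045596, the BV library of bird 1 had 153 normalized counts, against 38.8 to 59.5 in the other BV libraries. This gene lost its call in edgeR's test only when bird 1 was left out (adjusted p 0.057). For RABIF, the control library of bird 1 had 637 normalized counts, against 391 to 460 in the other controls. RABIF lost its call without bird 1, and also without bird 4.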

How the results depend on the processing

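The replicate block, with bird as the pairing, decided the calls of BV against control, since 93 genes were called higher, 55 lower and 16 with an absolute Log2 FC above 1.5 with it, and 0, 0 and 0 without it. For BV against conA, the fit without the block called 600 genes and the fit with it 1121, while BV against BS had 0 calls in both. BV against conA gave 1276 calls in birds 1 and 2 and 605 in birds 3 to 6. DESeq2 with the block called 143 genes higher and 119 lower, and edgeR's legacy dispersion method 52 and 34. Testing every gene with at least 2 reads over the 24 libraries gave 27 genes with an absolute Log2 FC above 1.5. With 1 bird left out, 30 to 98 genes were called higher, 11 to 116 lower and 8 to 19 with an absolute Log2 FC above 1.5. Birds 1 and 2 alone gave 159 higher, 158 lower and 42 with an absolute Log2 FC above 1.5, and birds 3 to 6 alone gave 9, 3 and 2. The cause of these differences was not tested. Fits of birds 1 and 2 alone estimate their error largely across genes, so their counts do not compare the size of the response. The comparison of the BV effect between the 2 groups of birds, the reads of low genes without bird 1 and the alternatives for BV against BS and conA were chosen after seeing the data.

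All 81 named genes kept their direction in every alternative in which they were tested. They were selected as called on these same libraries, and many also for moving alike in 6 of 6 birds. Their selection favours a kept direction, which is therefore no separate evidence for the calls. Their calls were lost for 81 without the block, 1 under DESeq2, 2 with DESeq2 size factors, 4 with total counts as scaling, 1 with the lower read minimum, 28 with the legacy method, 10 with BS libraries in the fit, 11 to 51 with 1 bird left out, 32 in birds 1 and 2 and 73 in birds 3 to 6. Another 10 genes of few reads were called only with the lower read minimum. The planned promoter description was not run.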
